A study of Drosophila melanogaster with 3 samples.

Results

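Suppressor of Hairless, abbreviated Su(H), is a DNA-binding protein that joins the cleaved part of the activated Notch receptor on target genes and switches them on. Trithorax group proteins keep developmental genes active through cell divisions: some methylate histones, and others belong to complexes that use ATP to slide or evict nucleosomes (chromatin remodellers). The Brahma (SWI/SNF) complexes, the ISWI complexes and the Kismet protein are remodellers of this kind, and the GAGA factor is a DNA-binding protein that helps to open chromatin at promoters. The occupancy of Su(H) was described here at the genes for 10 such proteins of Drosophila melanogaster: trx, ash1, brm, osa, mor, Bap60, Iswi, Trl, kis and tna. The genes were chosen by name, as found in the Ensembl annotation of the dm6 assembly, and are 10 of 13945 protein-coding genes on the chromosome arms with peaks.

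The material was 1 group of whole embryos of both sexes, 0 to 24 h old, from a stable transgenic line whose Su(H) carries GFP at its C terminus. It was sampled as 3 biological replicates. Chromatin was sheared to 200 to 800 bp and immunoprecipitated with an antibody against GFP, although another label field names Su(H) as the target. There was no second condition, so every value below is a description and no test was made. In whole embryos all cell types and stages are mixed, so weak binding in many cells and strong binding in few cannot be told apart. The deposited lists gave each peak a signal value and a summit. Replicate lists and the list of the pooled libraries held 30000 peaks each, background included. The authors' thresholded list held 3833 peaks, which were the 3833 of highest pooled signal, so all its members are strong in the pool but not necessarily in each replicate. Ranks below are ranks of signal within a list, 1 being the highest.

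All 10 genes had a thresholded summit inside the gene or within 2 kb, 25 summits in all. Over all protein-coding genes the share was 33.0%. Longer genes have more room for a summit, and 9 of the 10 genes were longer than the median gene of 2166 bp. Among genes under 5 kb, where Bap60, mor and Iswi belong, 27.5% had a peak. Among those of 5 to 20 kb, with ash1, brm and Trl, the share was 47.4%, and it was 55.8% among genes over 20 kb, with trx, osa, kis and tna. A single peak was found at ash1, brm, Bap60 and Iswi, whereas trx and mor had 2, kis 3, osa and Trl 4, and tna 6. That 6 of the 10 genes had 2 or more peaks compares with 9.86% of all protein-coding genes. All 4 genes over 20 kb had 2 or more, against 32.3% of genes of that length. One of the 1000 strongest peaks lay at 8 of the 10 genes (11.6% of all genes), brm and Iswi being the exceptions, and one of the 100 strongest at 3 (1.41%), namely ash1, osa and Trl. The genes were picked with earlier results of these data known, so these counts do not show that the group is particular.

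**Figure D1:**
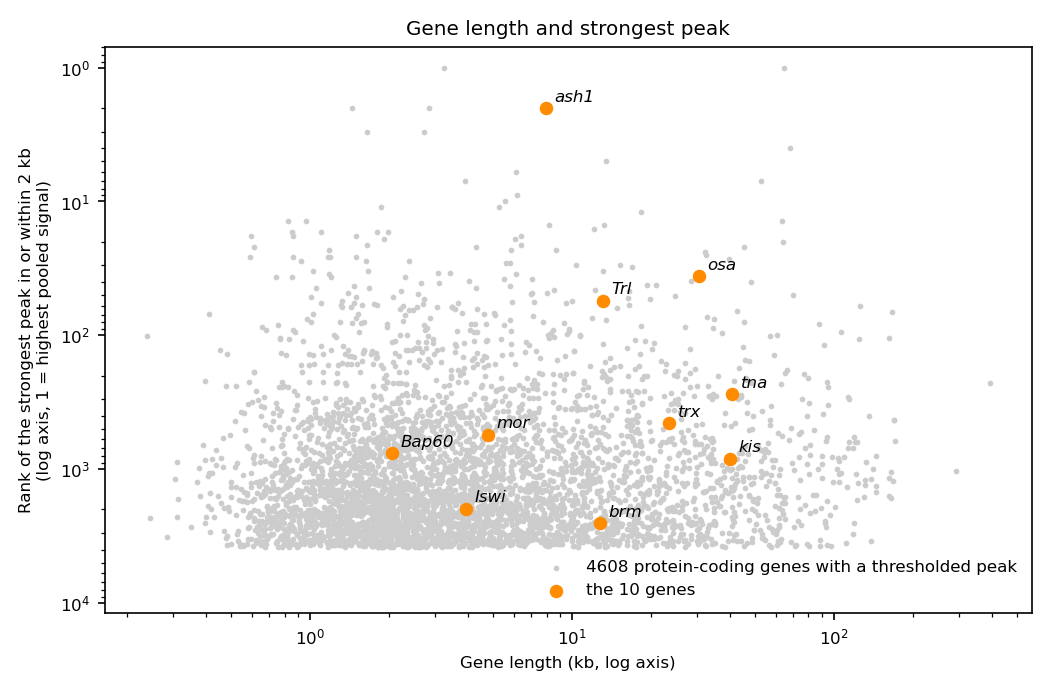
Each point is a protein-coding gene with a thresholded peak. The horizontal axis is gene length in kb and the vertical axis the rank of its strongest peak in or within 2 kb, both logarithmic, with rank 1 at the top. The 10 genes, in orange, run from rank 2 at ash1 to rank 2543 at brm.

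Not every counted peak lay at a start of the counted gene. Of the 25 summits 12 were at a promoter, that is within 500 bp of an annotated start of any gene, against 59.2% of all thresholded peaks. A further 12 were in introns (28.1% of all peaks) and 1 was in an exon of a non-coding RNA gene. The member's own start was the nearest of all annotated starts for 17 summits. For 4 the nearest start was that of another protein-coding gene, and for 4 that of a long non-coding RNA gene, against 10.7% of all thresholded peaks nearest to a non-coding gene. A summit within 500 bp of an own start was present at 8 of the 10 genes (19.4% of all genes), and a summit whose nearest protein-coding start was the gene's own at 7 (18.6%). The osa and ash1 genes failed the former count, and mor, ash1 and Bap60 the latter.

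The sequence under the summits was searched for 5 short motifs within 100 bp to each side, on both strands. Sequences below are the plus strand of dm6, read 5′ to 3′ from the RefSeq copy of the assembly, with every match to a searched motif in capitals. The Su(H) site, taken as CGTGGGAA, CGTGAGAA, TGTGGGAA or TGTGAGAA, was found at 1 of the 25 summits (3.57% of all thresholded peaks). That summit was the strongest in tna, and the match there was CGTGAGAA on the minus strand, 66 bp from the summit. GAGAG, the core of the element bound by the GAGA factor that Trl encodes, was present at 8 summits (26.2% of all peaks). The longer GAGAGAG, which contains GAGAG and therefore counts for both, was present at 5 (5.71%). All 5 lay in introns, of osa, tna and Trl. They were 5 of 12 intronic member peaks, and 5.66% of all intronic thresholded peaks held GAGAGAG. The 5 are not all separate sites, because osa peaks 3 and 4 overlap, with summits 222 bp apart. At tna peak 1 the GAGAGAG matches lay in the searched window but outside the called peak. The following windows are those with GAGAGAG. They show that the repeats, read as CTCTCTC on this strand where they are on the other, lay to the side of most summits.
tna peak 1, chr3L:10856673-10856873, with the Su(H) match near its right end: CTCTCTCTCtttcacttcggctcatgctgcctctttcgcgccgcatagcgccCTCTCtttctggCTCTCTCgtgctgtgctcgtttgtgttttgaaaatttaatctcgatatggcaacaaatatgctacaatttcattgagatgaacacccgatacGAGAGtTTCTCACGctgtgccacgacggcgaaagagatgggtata
tna peak 6, chr3L:10861971-10862171: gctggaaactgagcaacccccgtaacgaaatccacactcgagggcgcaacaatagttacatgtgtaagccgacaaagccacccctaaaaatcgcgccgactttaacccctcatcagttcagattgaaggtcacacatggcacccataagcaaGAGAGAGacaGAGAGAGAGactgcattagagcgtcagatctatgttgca
osa peak 3, chr3R:17717135-17717335: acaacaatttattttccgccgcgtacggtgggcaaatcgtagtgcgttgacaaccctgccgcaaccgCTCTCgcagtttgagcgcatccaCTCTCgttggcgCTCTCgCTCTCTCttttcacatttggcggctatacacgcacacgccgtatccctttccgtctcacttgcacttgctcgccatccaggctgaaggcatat
osa peak 4, chr3R:17717357-17717557: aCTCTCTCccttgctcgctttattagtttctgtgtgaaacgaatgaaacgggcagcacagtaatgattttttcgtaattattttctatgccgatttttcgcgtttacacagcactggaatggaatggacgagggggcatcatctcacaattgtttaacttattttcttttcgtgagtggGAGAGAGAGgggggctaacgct
Trl peak 4, chr3L:14760263-14760463: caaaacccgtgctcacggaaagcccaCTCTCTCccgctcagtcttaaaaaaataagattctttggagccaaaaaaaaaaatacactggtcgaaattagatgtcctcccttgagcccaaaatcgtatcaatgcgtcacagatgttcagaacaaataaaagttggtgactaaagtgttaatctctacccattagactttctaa
The summit is base 101 of each window. GAGAGAG was centred 11 bp from the summit of osa peak 3, and the nearest one was 33, 55, 71 and 82 bp away at tna peak 1, tna peak 6, Trl peak 4 and osa peak 4.

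The 3 strongest member peaks held none of the 5 motifs. GAGAG was at 26.2% of all thresholded peaks and each other motif at 5.71% or fewer, so most peaks held none. The windows of the 3 strongest are shown for comparison, again with the summit at base 101. They have no capitals because nothing matched.
ash1 peak 1, chr3L:19590527-19590727: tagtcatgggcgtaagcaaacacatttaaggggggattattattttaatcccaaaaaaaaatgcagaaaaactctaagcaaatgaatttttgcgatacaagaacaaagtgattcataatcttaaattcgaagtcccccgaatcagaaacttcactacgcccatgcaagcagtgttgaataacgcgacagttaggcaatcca
osa peak 1, chr3R:17704309-17704509: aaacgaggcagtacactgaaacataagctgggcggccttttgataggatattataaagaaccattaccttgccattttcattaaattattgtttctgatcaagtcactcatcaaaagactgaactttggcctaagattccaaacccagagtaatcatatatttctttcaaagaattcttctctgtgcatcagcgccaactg
Trl peak 1, chr3L:14759384-14759584: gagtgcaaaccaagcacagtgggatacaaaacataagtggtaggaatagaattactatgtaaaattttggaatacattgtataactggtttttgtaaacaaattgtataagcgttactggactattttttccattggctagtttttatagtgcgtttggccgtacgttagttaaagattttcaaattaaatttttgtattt
The other 2 motifs are those of housekeeping promoters. The DREF element TATCGATA was at 1 summit (5.37% of all peaks), that of Iswi, 54 bp away. Motif 1, the site of the factor M1BP searched as GGTCACACT, was also at 1 (2.95%), the promoter summit of trx. There it read AGTGTGACC on the plus strand and was centred 1 bp from the summit. A match is a description of the letters and does not show a bound site.

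Among the histone methyltransferases, trx, the fly counterpart of the mammalian MLL genes, had its stronger peak in the first intron of all 5 transcripts. This peak (chr3R:14283756-14283998) lay 3027 bp downstream of the single annotated start and ranked 452 in the pooled list. Its signal was 95.5 in replicate 1, 131 in replicate 2 and 137 in replicate 3, or 121 ± 22.6 (SD, n = 3). Replicate 1 was the low one, and the ranks were 706, 363 and 347. The second trx peak was 22 bp from the start, at rank 3275 (chr3R:14286673-14287088). It had a signal of 37.4 in replicate 1 and 71.9 in replicate 2, and no summit of replicate 3 lay within 200 bp. It was the only member peak that a replicate lacked. Of the pooled summits of trx below the threshold, 14 in number, the strongest ranked 4755 and lay 883 bp from the start.

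The ash1 gene, whose product is another histone methyltransferase, was counted for a peak that is not at its promoter. The summit (peak chr3L:19590421-19590814) lay 146 bp beyond the 3′ end of ash1 and 8128 bp from its start, but 103 bp from the start of the neighbouring gene CG14100. It was the second strongest peak of the pooled list. The signal was 847 in replicate 1, 824 in replicate 2 and 956 in replicate 3, or 876 ± 70.1 (SD, n = 3), with ranks 1, 2 and 2. The start of ash1 itself had a pooled summit 171 bp away that ranked only 15011. That summit had a signal of 19.9 in replicate 2 and 18.8 in replicate 3, near the middle of those lists (medians 16.8 and 17.7), and no match in replicate 1. The ash1 promoter thus had no thresholded peak.

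Brahma complex genes differed widely in signal. The gene for the ATPase, brm, had 1 peak, 80 bp upstream of its first start and at rank 2543 (chr3L:15982741-15983156). Its signal was 75.3 in replicate 1, 31.5 in replicate 2 and 34.8 in replicate 3, or 47.2 ± 24.4 (SD, n = 3). Replicate 1 was more than the other two combined, and the peak was among the 3833 strongest of that replicate alone. The 2 annotated starts of brm are 20 bp apart, so the summit was close to both, at 80 and 100 bp.

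The osa gene encodes the ARID subunit that marks the BAP form of the complex. Its strongest peak (chr3R:17704237-17704593) ranked 36 in the pool and lay 13941 bp into the gene, in the fourth intron of all 6 transcripts. The non-coding gene lncRNA:CR46035 is transcribed in the opposite direction within that intron. The summit lay in its exon, 714 bp from its start. Signal was 365 in replicate 1, 346 in replicate 2 and 381 in replicate 3, or 364 ± 17.5 (SD, n = 3). An SD of 4.82% of the mean was the smallest of any member peak. A second peak of the same intron (rank 1498, 65.8 ± 5.32) was 59 bp from the start of lncRNA:CR46036. The replicates gave it 71.1, 60.5 and 65.8.

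The other osa peaks formed a pair 222 bp apart in the first intron, 1115 and 893 bp from the start. The former had a signal of 65.0, 35.3 and 54.6 in replicates 1 to 3 (51.6 ± 15.1, rank 2314), and the latter 65.0, 24.4 and 25.5 (38.3 ± 23.1, rank 2658). Replicate 1 had a single summit between them, which was matched to both, so its value was used for each of the pair. The only annotated start of osa had a pooled summit 14 bp away, which ranked 10461. Its signal was 25.2 in replicate 1 and 18.0 in replicate 3, with no match in replicate 2. As at ash1, the thresholded peaks of osa lay away from its own start.

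The core subunit gene mor had both of its peaks upstream, on the side of Hel89B, which is transcribed in the opposite direction and encodes a helicase of the Snf2 family. The stronger (chr3R:15974208-15974623, rank 553) was 1503 bp upstream of mor and in an intron of Hel89B, 1118 bp from the nearest Hel89B start. Its signal was 126, 94.4 and 91.1 in replicates 1 to 3 (104 ± 19.3, n = 3). The weaker (rank 1740) lay between both starts, 250 bp from that of mor and 135 bp from that of Hel89B, with signals of 63.4, 46.5 and 66.6 (58.8 ± 10.8).

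Bap60, another subunit gene, likewise shared its peak with a divergent neighbour. The summit (peak chrX:13159417-13159832, rank 760) was 117 bp upstream of Bap60 and 21 bp from the nearest start of CG12096. Signal was 116 in replicate 1, 88.8 in replicate 2 and 61.3 in replicate 3, or 88.6 ± 27.2 (SD, n = 3). Replicate 1 was 1.89 times replicate 3. A peak near the starts of divergent genes, like this one and the weaker mor peak, cannot be assigned to one of the genes from its position.

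Iswi, the ATPase gene of the NURF, ACF and CHRAC complexes, had the peak nearest to a start of all 25. Its summit lay 3 bp from the single Iswi start (chr2R:12636460-12636875, rank 1973). The signal was 74.2 in replicate 1 and 63.0 in replicate 3 but 14.8 in replicate 2, or 50.6 ± 31.6 (SD, n = 3). In replicate 2 the peak ranked 18665, against 1136 and 1573 in the others. The highest replicate was 5.03 times the lowest, the largest ratio of any member peak.

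The kis gene encodes Kismet, a large chromodomain ATPase of the CHD family. It had 3 peaks, a pair 1366 bp apart and another 25947 bp from the nearer of the pair. The one at the upstream start, used by 5 of 6 transcripts, was 66 bp upstream of it (chr2L:250681-251096, rank 978). Its signal was 84.1, 69.4 and 63.5 in replicates 1 to 3 (72.3 ± 10.6, n = 3). The strongest kis peak (chr2L:223510-223613, rank 837) was 27247 bp into the gene and 57 bp from the start of lncRNA:CR44222, which runs in the opposite direction. It was 1614 bp upstream of the internal kis start, which 1 transcript uses. The replicates gave 83.4, 95.4 and 79.2 (86.0 ± 8.42). A weaker peak 1366 bp from it (rank 2550) had 58.4, 44.4 and 26.0 (42.9 ± 16.2). At the internal start itself there was a summit 168 bp away that ranked 4013, just below the threshold, with 44.2 in replicate 2, 46.7 in replicate 3 and no match in replicate 1.

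Trl, which encodes the GAGA factor, held 4 peaks spread over 4167 bp around its 4 annotated starts. The strongest (chr3L:14759308-14759719, rank 55) was intronic, 1565 bp downstream of the first start and 1522 bp upstream of the second, which 7 of 10 transcripts use and which CG42507 shares. Its signal was 327 in replicate 1, 288 in replicate 2 and 251 in replicate 3, or 289 ± 38.4 (SD, n = 3). The next (chr3L:14757101-14757316, rank 236) was 111 bp downstream of the fourth start, with 170.2, 125 and 174 (156 ± 27.5). These strong peaks had little spread, with SDs of 13.3% and 17.6% of the mean.

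The weaker Trl peaks were less even. One 1140 bp downstream of the fourth start (rank 2000) had 77.9 in replicate 1, 15.9 in replicate 2 and 41.2 in replicate 3, or 45.0 ± 31.2 (SD, n = 3). Its SD of 69.3% of the mean was the largest among the member peaks. One 686 bp downstream of the first start (rank 3434) had 42.4, 38.7 and 22.6 (34.6 ± 10.5). The second and the third start had no thresholded summit within 500 bp, and the summit of highest signal near them ranked 13591.

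The tna gene encodes Tonalli, a protein with a SUMO-ligase type zinc finger that interacts genetically with brm and osa. It had the most peaks of the 10 genes, and 3 of its 6 lay within 1941 bp around the second and the third start. The strongest (chr3L:10856768-10856912, rank 277) was in the first intron of the transcript that begins at the first start, 1116 bp upstream of the second start. Its window, printed above, holds the Su(H) match and the GAGA repeats. The Su(H) match lay inside the called peak, but every GAGAGAG match lay outside it. The signal of this peak was 137 in replicate 1, 135 in replicate 2 and 166 in replicate 3, or 146 ± 17.4 (SD, n = 3). Downstream of it, peaks lay 47 bp from the second start (rank 2206; 38.2, 58.2 and 53.9) and 310 bp from the third (rank 2853; 51.7, 34.2 and 28.7).

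The remaining tna peaks were all intronic and about 3 to 4 kb from a start. The one 3072 bp downstream of the first start had 66.8, 46.3 and 67.5 (60.2 ± 12.0, rank 1410). The one 3029 bp upstream of the fourth start had 46.3, 47.8 and 57.0 (50.4 ± 5.77, rank 2069), and the one 3667 bp downstream of the third had 46.2, 35.8 and 37.6 (39.9 ± 5.54, rank 3048). Neither the first nor the fourth start had a thresholded summit within 500 bp. The nearest summit to the first, 110 bp away, ranked 17128.

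**Figure D2:**
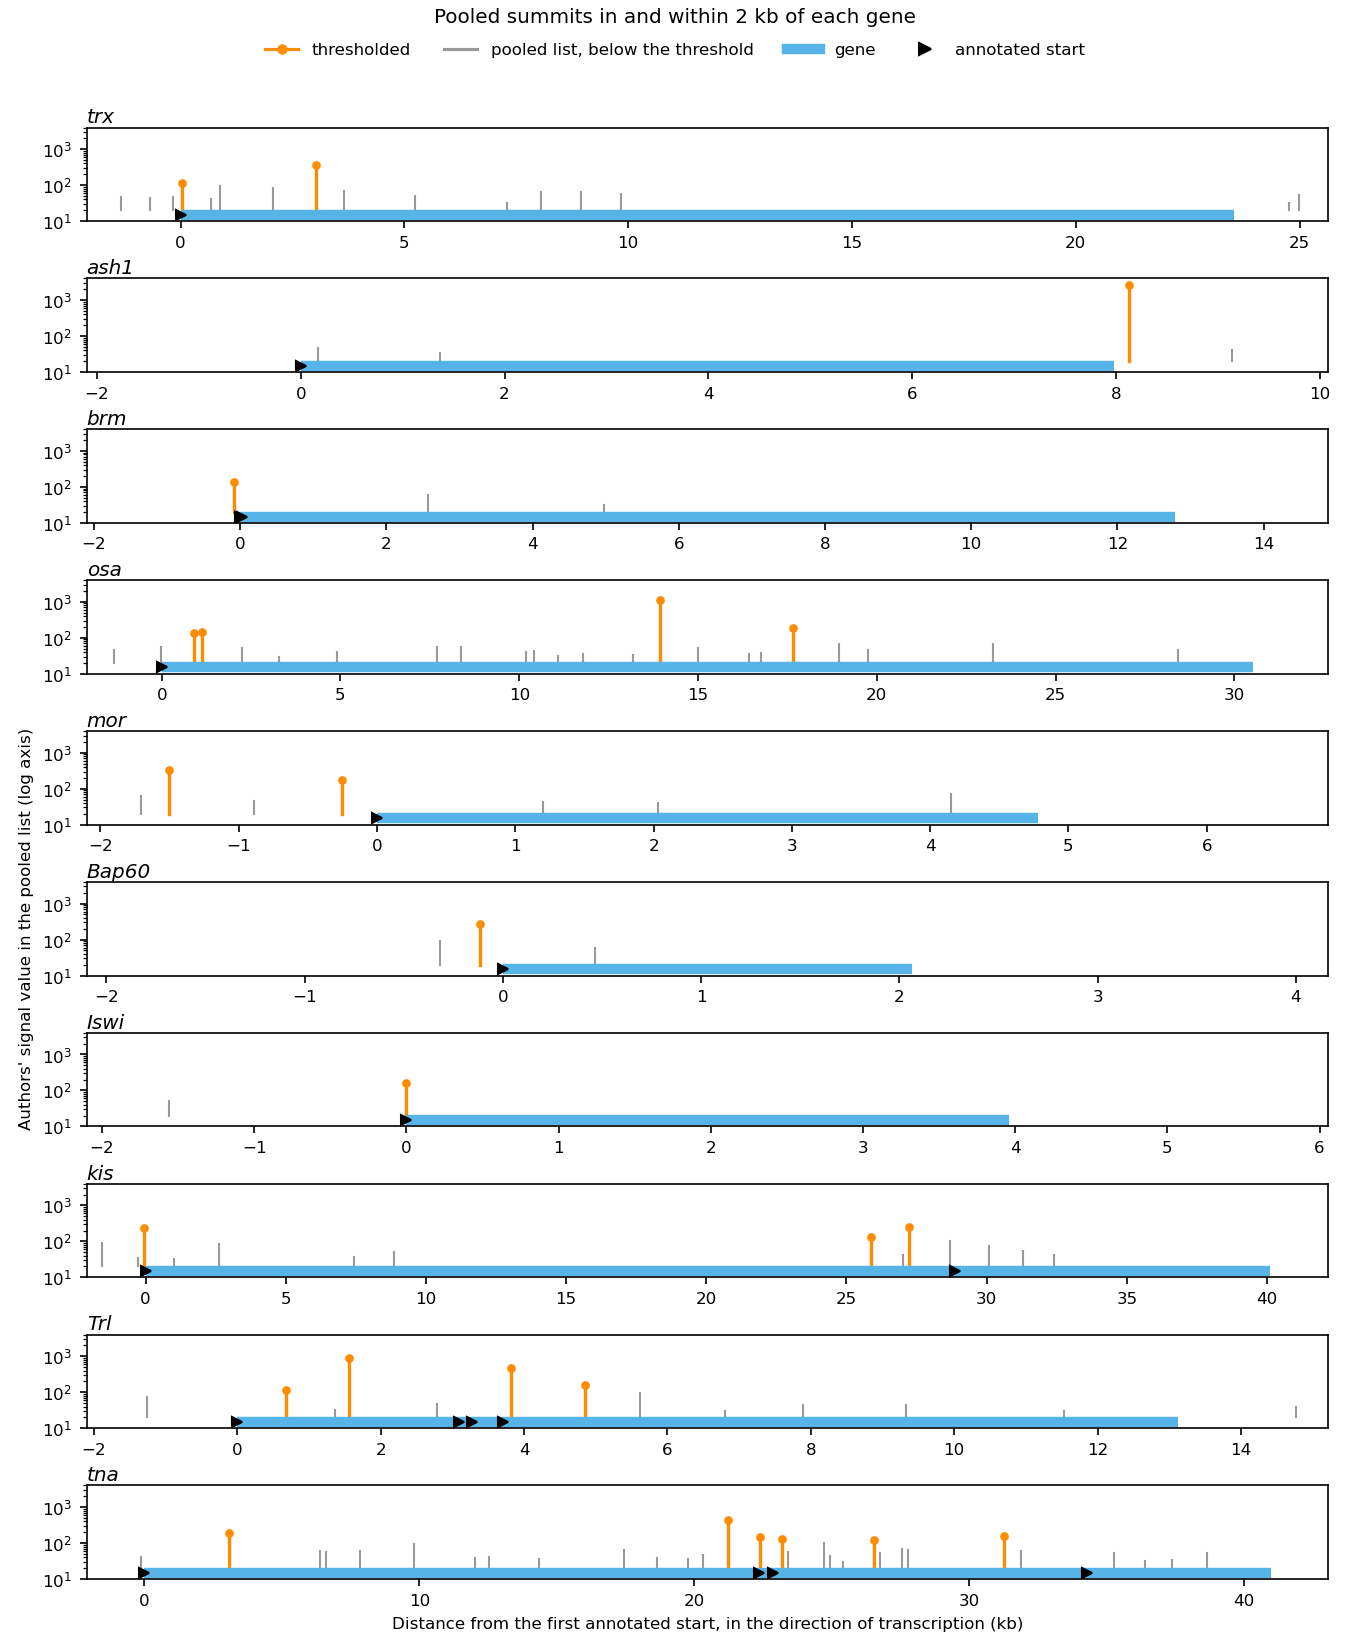
Each panel is 1 gene. The horizontal axis is the distance in kb from its first annotated start in the direction of transcription, and the vertical axis the pooled signal value on a log scale. Orange stems are thresholded summits, grey stems pooled summits below the threshold, the blue bar is the gene and black arrowheads are annotated starts. The tallest stems of trx, ash1, osa, mor, kis, Trl and tna stand over 1 kb from every arrowhead, while those of brm, Bap60 and Iswi stand 80, 117 and 3 bp from one.

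Over all 10 genes there were 18 annotated starts. A thresholded summit lay within 500 bp of 10 of them, a pooled summit below the threshold near a further 6, and none near 2, the first of Trl and the fourth of tna. Of the 19607 annotated starts of all protein-coding genes, 17.7% had a thresholded summit that near, 35.3% only a weaker pooled one and 47.0% none. Where a gene had several starts far apart, as Trl, kis and tna did, thresholded summits lay near some of the starts and not near others.

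Many weaker summits lay in the same genes. In the pooled list the 10 genes held 115 summits with their flanks, from 2 at Iswi to 30 at tna, and all 10 had at least 1, as did 80.8% of all protein-coding genes. The counts in replicates 1 to 3 were near each other for some genes, such as osa with 20, 22 and 24. For others they were not, such as kis with 19, 21 and 10. The median density was 5.38 pooled summits per 10 kb over the 10 genes, against 3.18 over all protein-coding genes and 2.03 over those longer than 20 kb. Of the 90 member summits below the threshold, 27.8% were matched in all 3 replicates, beside 22.2% of all 26167 such summits.

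Most sites had a summit in every replicate, but not at the same strength. A summit within 200 bp was found in all 3 replicates for 24 of the 25 peaks (97.9% of all thresholded peaks). The thresholded list was made from these same replicates, so this match is partly built in. The replicate lists include background, so a match can also be weak. In replicate 2 the matches of the Iswi peak (14.8) and Trl peak 3 (15.9) were below the list median of 16.8. If membership of the 3833 strongest peaks was asked of each replicate list separately, 15 of the 25 were in all 3 sets, 5 in 2 and 5 in 1. Over all thresholded peaks the shares were 57.7%, 27.7% and 13.4%, so the 15 of 25 was near the background. The 5 found in 1 set were the trx promoter peak, the brm peak, osa peak 4, and tna peaks 5 and 6. Among the 24 matched peaks the median SD was 18.6% of the mean, beside 20.6% over all 3751 peaks matched in all replicates. For the 10 member peaks among the 1000 strongest it was 14% (14.8% over all such peaks), and for the 14 weaker ones 29.8% (23.8%).

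The direction of the differences was uneven. Replicate 1 was the highest of the 3 at 14 of the 24 peaks (58.3%, against 32.8% of all peaks), and replicate 2 the lowest at 13 (54.2%, against 33.4%). Over all matched peaks the median signal was 55.1, 55.4 and 56.3 in replicates 1 to 3, so the lists as a whole did not differ in this way. Among the 14 peaks highest in replicate 1, osa peaks 3 and 4 were matched to the same replicate 1 summit, so its value was counted for both. No source states whether signal was scaled for library depth, and the part that depth or a single library had in these differences was not tested.

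**Figure D3:**
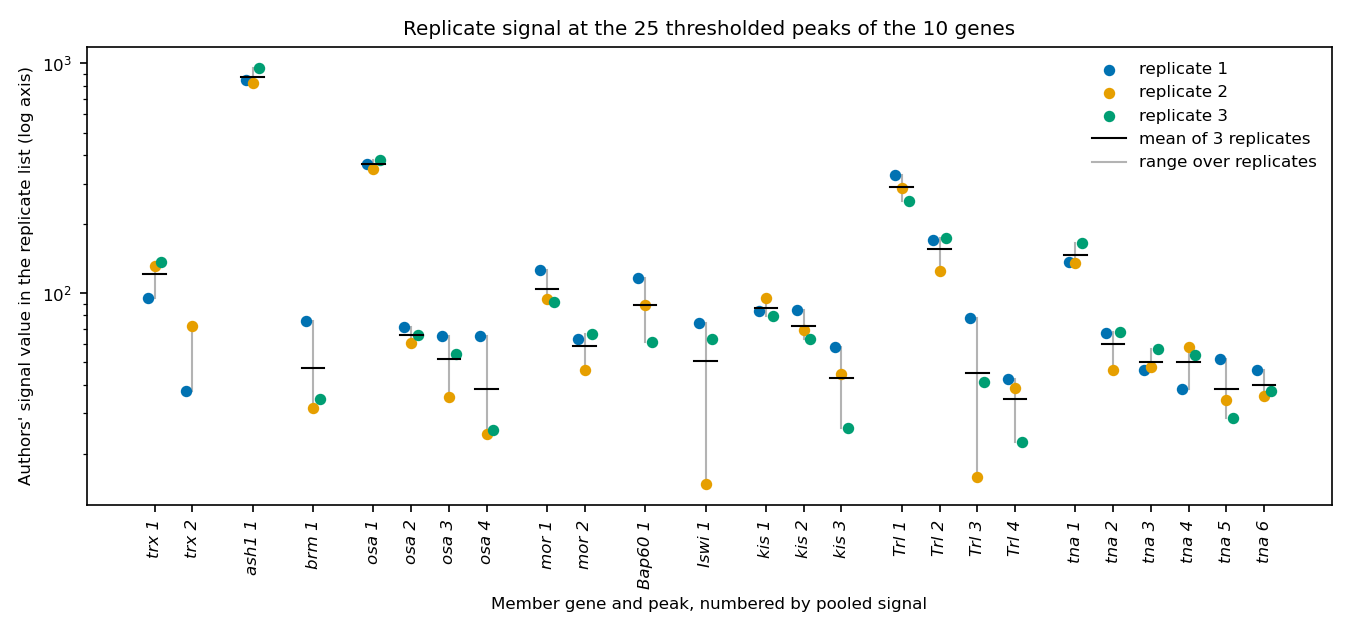
Points are the authors' signal values in replicates 1 to 3 for the 25 thresholded peaks of the 10 genes, on a log axis, with the mean of 3 as a black bar and the range as a grey line. Peaks are numbered within a gene by pooled signal. Values lie close together at ash1 peak 1 (824 to 956) and osa peak 1 (346 to 381) and far apart at Iswi peak 1 (14.8 to 74.2) and Trl peak 3 (15.9 to 77.9). The second trx peak has 2 values and no mean.

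**Figure D4:**
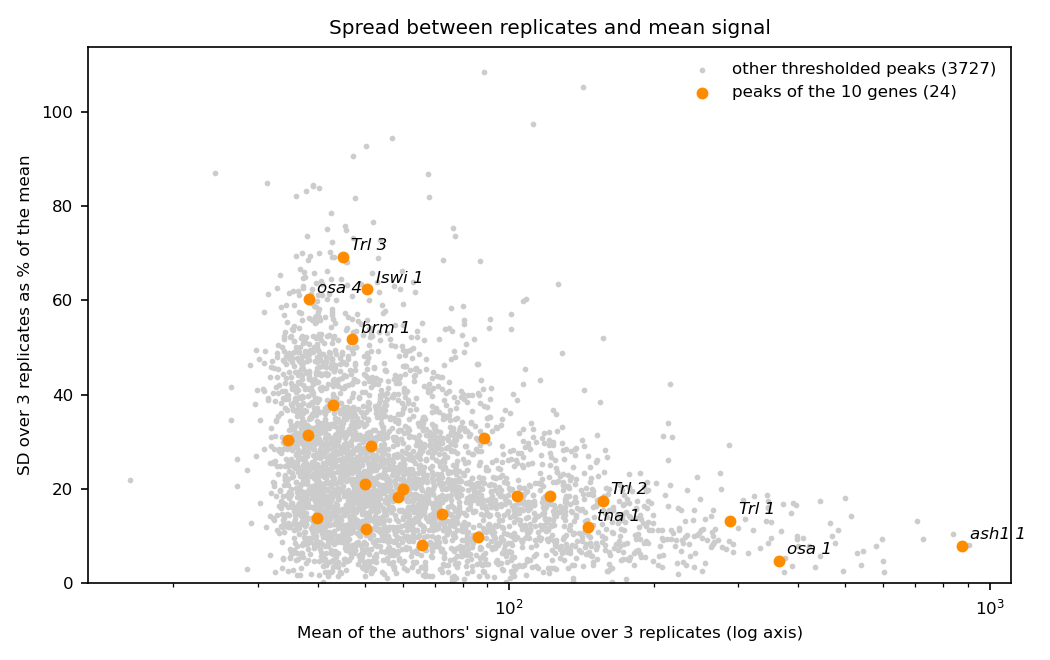
Each point is a thresholded peak matched in all 3 replicates, with the mean of the authors' signal value on a log axis and the SD over 3 replicates as a percentage of that mean. Grey points are other peaks and orange points the 24 member peaks. Among the member peaks the spread is widest at low means, where Trl peak 3 (69.3%), Iswi peak 1 (62.3%), osa peak 4 (60.3%) and brm peak 1 (51.7%) lie.

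A wider list of other remodeller and Trithorax group genes was set beside them. Of 52 symbols listed, 50 were found in the annotation. A thresholded summit lay in or within 2 kb of 37 of these 50, including 18 of 24 genes under 5 kb, 11 of 18 of 5 to 20 kb and all 8 over 20 kb. As given above, the shares over all genes of these lengths were 27.5%, 47.4% and 55.8%. One of the 1000 strongest peaks was counted for 15 of the 50 (11.6% of all genes), and a summit within 500 bp of an own start for 25 (19.4%). No peak was found at 13, among them the Brahma complex genes Bap111, Bap170, polybromo and e(y)3, and the methyltransferase gene Set1. Of the same complex, Snr1 (rank 1748), Bap55 (rank 2063) and Act5C, described below, were counted with a peak. The peaks of Snr1 and Bap55 lay beyond the 3′ end and nearer to the start of another protein-coding gene.

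Of the 10 strongest peaks counted for this wider list, 7 had the start of another gene as the nearest protein-coding start, and 4 summits lay inside the counted gene. The highest, of rank 17 (477 ± 41.2, n = 3), was counted for the histone chaperone gene Caf1-55 but lay beyond its 3′ end, 3945 bp from its start, with Art3 the nearest protein-coding start. Those of wds (143 ± 33.5), pont (144 ± 19.0) and Wdr82 (122 ± 3.93) were also beyond the 3′ end and nearer to another gene's start. The peaks of Mi-2, a CHD remodeller (204 ± 23.0), simj (125 ± 10.9) and mod(mdg4) (106 ± 26.7) lay inside the gene, but far from its own starts, at 6917, 14069 and 11900 bp, and nearer to the start of another gene. For mod(mdg4) the other gene was pre-mod(mdg4)-E, which the annotation lists as a separate gene despite the shared name. Of these 10 only Act5C, tou and Ino80 had their own start as the nearest protein-coding start. At Act5C a start of a non-coding gene was nearer, within 500 bp of the summit. Act5C, whose actin is also a Brahma complex subunit, had a signal of 159 ± 18.2 at a summit 684 bp from its start. For tou the values were 128 ± 9.87 and 556 bp, and for the remodeller ATPase gene Ino80 103 ± 13.4 and 74 bp. Among protein-coding starts, the strongest peak was nearest to an own start in 18 of the 37 genes with a peak. Any thresholded summit nearest to an own start was found at 24 of the 50 genes, beside 18.6% of all protein-coding genes.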

How the data were processed

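Su(H) binding was measured by ChIP-seq in 3 libraries of 1 group. Per the file lists deposited with the samples, each replicate list was derived from 1 aligned library with a control, the pooled list from all 3 libraries, and the thresholded list from these by irreproducible discovery rate. The sources used here do not name the aligner, the peak caller or the threshold. Each peak has a signal deposited by the authors, whose scaling for depth is not stated, and a deposited −log10 q value, which all 25 member peaks held at its maximum and which was therefore not used. Read depth is unknown from these lists, so no interval from counts is given. The dm3 lists were not used.

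Summits (start plus offset) were assigned to genes of Ensembl release 115 (BDGP 6.54), whose coordinates are dm6, with Python 3.11.15 and pandas 2.3.3. A gene was counted with a summit in it or within 2 kb. Replicate peaks were matched by the nearest summit within 200 bp. Location was the first that applied of promoter (500 bp), exon classes, intron or intergenic. A start shared or tied with a member counted as the member's. Errors are SDs over 3 replicate lists. The counting and matching steps were tested on simulated data.

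The members, gene lists, length bands and motifs were chosen with earlier results of these data known. All 10 members are named, with every thresholded peak. Of the wider list the 10 strongest among the 1000 strongest peaks are named, and some further genes, chiefly of the Brahma complex. Windows were printed where they held GAGAGAG or were the 3 strongest, which was chosen after their values were seen, and those largely in transcribed leaders were left out. Alternatives changed the flank, peak list, promoter distance, matching, replicates and motif window.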

Additional observations from a re-analysis of the deposited data

How the results depend on the processing

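Of 88 alternative values, 79 stayed within 1.5 times the count reported or within 1 SD of the signal reported, and 9 moved further. Many of the 79 could not have moved further, so their number does not measure stability. Leaving out 1 of 3 replicates cannot shift a mean by 1 SD. A nearest summit within 200 bp stays the nearest within 500 bp. A wider flank or a longer list cannot lower a count that is already 10 of 10. Counting only summits inside the gene body left 5 members with a peak (11.2% of all genes), the lost ones being mor, ash1, brm, Iswi and Bap60. All 10 kept a peak with 1 or 5 kb on each side (27.9% and 45.7% of all genes), and 8, 7 and 8 of them for the 1000 strongest peaks, for summits nearest to an own coding start (an alternative added after seeing the data) and for summits within 500 bp of an own start. From the strongest peaks of library 1, 2 or 3 alone, 10, 8 and 9 members had one, beside 33.6%, 31.7% and 32.5% of all genes. Motif counts moved with the window. With 50 bp to each side the Su(H) site was at 0 member summits, DREF at 0, GAGAG at 3 and GAGAGAG at 2, beside 1.80%, 3.03%, 13.0% and 2.32% of all peaks. With 200 bp they were at 2, 2, 15 and 10, beside 6.00%, 7.57%, 47.3% and 13.1% of all peaks. Wider windows hold more letters by construction. Leaving out 1 replicate at a time gave 24 to 25 member peaks found in all the remaining ones. It moved the mean signal at Iswi over 38.9 to 68.6 and at brm over 33.1 to 55.0, against 50.6 and 47.2 with all 3. No paired analysis was possible because there is only 1 group. Depth is unknown, so no counting error can be set beside the signal values.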
